A study of Drosophila melanogaster with 7 samples.

Results

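10 genes for secreted immune peptides of Drosophila melanogaster were followed library by library in larval tracheae, the tubular airway epithelium. They are the antifungal peptide gene Drs (drosomycin), the Bomanin genes IM1, IM2, IM3, CG5778 and CG5791 (BomS1, BomS2, BomS3, BomT3 and BomBc3 in current RefSeq naming), the Daisho genes IM4 and IM14 (Dso1 and Dso2), the metchnikowin gene Mtk and the attacin gene AttC. The genes were found by exact name in the deposited gene tables, where all 10 of 17697 named genes were present. They were chosen with their difference between the groups already known, so the values below describe that difference and no test is drawn from it.

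RNA sequencing counts were available from 4 control and 3 Hop.CA libraries of third-instar tracheae. The titles call the controls wild type, while the strain label names btl-Gal4, UAS-GFP, UAS-Hop.CA and tub-Gal80ts for all 7 libraries. hop encodes the fly JAK kinase, Hop.CA is the form expressed here to raise JAK/STAT signalling, btl-Gal4 drives expression in tracheal cells, and Gal80ts is a temperature-sensitive repressor of Gal4. Control animals stayed at 18 °C. Hop.CA animals were raised at 18 °C and spent 18 hours at 29 °C, starting in the second larval stage, before sampling. Expression of Hop.CA and the temperature shift therefore came together, and their parts in any difference between the groups cannot be told apart. The titles give biological replicate numbers, and no label states how many animals a library holds. Total gene reads ranged from 16795748 to 20455268 per library. hop itself stood at 38.4 to 44.0 CPM (read counts scaled to library size) in controls and at 1341 to 1592 CPM in Hop.CA libraries (log2 fold change 5.14 ± 0.103 SE, adjusted p = 2.69e-07), in the direction of the labels.

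As background, flies answer fungi and bacteria with short secreted peptides made mainly by the fat body and, locally, by barrier epithelia such as the trachea. The Toll pathway ends in the NF-kappaB factors Dif and dl and drives Drs, the Bomanins and the Daisho peptides in the fat body, while the Imd pathway ends in Rel and drives attacins, diptericins and cecropins. In airway epithelium a drosomycin reporter is known to respond through Imd rather than Toll. Bomanins are very short peptides needed for Toll-dependent resistance to fungi and Gram-positive bacteria, and the Daisho peptides contribute to defence against filamentous fungi.

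Drs was by far the most abundant of the 10 and was higher in every Hop.CA library than in any control library. The gene lies on chromosome 3L (3369556 to 3369942, dm6, plus strand) as a single exon, so it has no splice junction to count. Its level was 539, 809.8, 217 and 348 CPM in control replicates 1 to 4, and 4131, 2256 and 3120.5 CPM in Hop.CA replicates 1 to 3. The lowest Hop.CA library stood 2.79-fold above the highest control, and Hop.CA replicate 2 was the lowest of its group. The means were 478.5 ± 257 CPM (SD, n = 4) and 3169 ± 938 CPM (SD, n = 3), a 6.62-fold ratio and a fitted log2 fold change of 2.73 ± 0.451 (SE). Controls spanned 3.73-fold and Hop.CA libraries 1.83-fold, both far beyond counting error, since the smallest count was 3654 reads with an exact Poisson 95% interval of 210 to 224.5 CPM. Unique reads gave the same levels, as only 1 of 219995 Drs reads was not unique. Per exon length, by the deposited RPKM, Drs ranked 4, 9 and 7 among all genes in Hop.CA replicates 1 to 3 and between 32 and 184 in the controls. Its flanking genes were kst, at 266 to 481 CPM, and Ythdc1, at 65.9 to 97.3 CPM over the 7 libraries. Neither passed the test of the groups (log2 0.31, adjusted p = 0.202 and log2 0.08, adjusted p = 0.678).

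**Figure D1:**
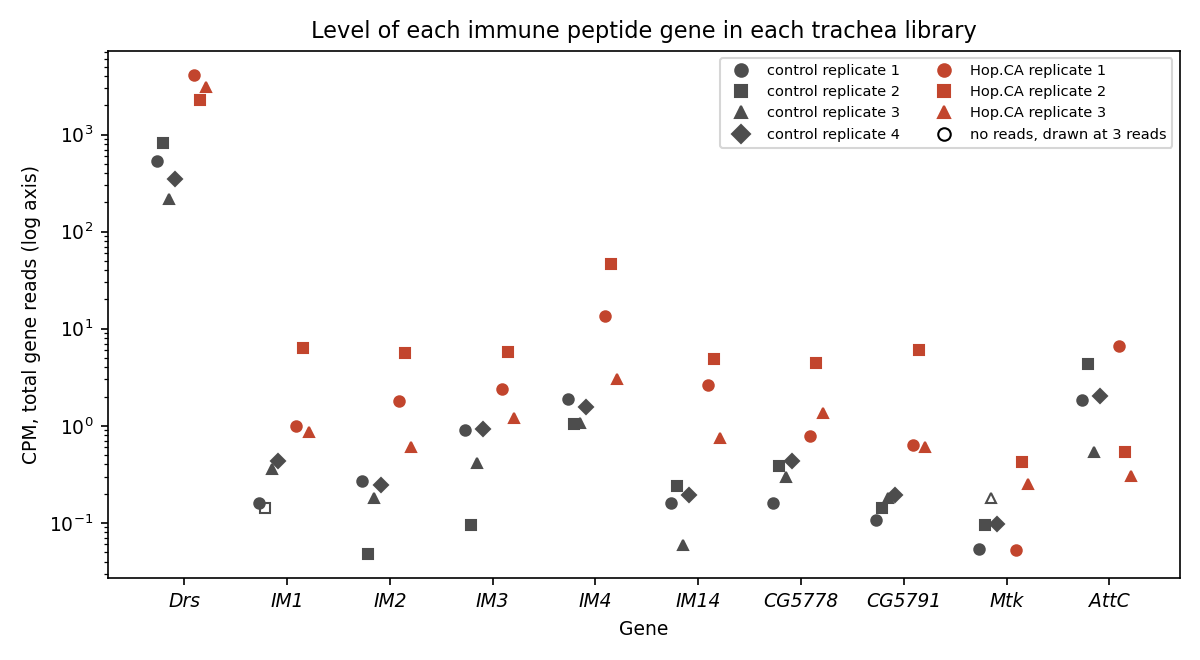
CPM from total gene reads (log axis) for each of the 10 peptide genes, with 4 control libraries in grey and 3 Hop.CA libraries in red, 1 marker shape per replicate number; open markers had no reads and are drawn at 3 reads. For Drs and all 7 Bomanin and Daisho genes the 3 Hop.CA libraries sit above the 4 controls, whereas Mtk and AttC overlap. For those 7, exact Poisson 95% intervals of the lowest Hop.CA library and the highest control overlap.

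The Daisho genes lie side by side on 2R (IM4 at 20868496 to 20869321 on the minus strand, IM14 at 20870392 to 20870678 on the plus strand, dm6), divergently oriented and 1070 bases apart. IM4 was the most abundant gene after Drs in Hop.CA animals. It was at 1.88, 1.06, 1.07 and 1.55 CPM in control replicates 1 to 4, and at 13.5, 46.6 and 3.03 CPM in Hop.CA replicates 1 to 3. The groups did not overlap, but the Hop.CA libraries spanned 15.4-fold, with replicate 2 highest and replicate 3 only 1.61-fold above the highest control. The means were 1.39 ± 0.400 and 21.0 ± 22.7 CPM (log2 fold change 3.91 ± 0.855 SE), so the SD of the Hop.CA group exceeded its mean. Spliced transcripts took part, with 28 reads across exon junctions in the controls together and 313 in the Hop.CA libraries. IM14 was at 0.161, 0.240, 0.0595 and 0.194 CPM in the controls, 1 to 5 reads each, and at 2.64, 4.91 and 0.757 CPM in Hop.CA replicates 1 to 3. It kept the order of IM4 among the Hop.CA libraries, with replicate 2 highest and replicate 3 lowest, and gave a log2 fold change of 3.99 ± 0.687 (SE). Ipk1, which starts 112 bases beyond IM14, was at 11.4 to 15.4 CPM in all 7 libraries (log2 -0.015, adjusted p = 0.941).

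IM1, IM2 and IM3 belong to a cluster of Bomanin genes on 2R (IM1 at 18383949 to 18384378, IM2 at 18386602 to 18387030 and IM3 at 18387895 to 18388734, dm6, plus strand). IM1 and IM2 were near the detection limit in control tracheae, while IM3 had 17 and 19 reads in control replicates 1 and 4. All were higher in Hop.CA. IM1 had no read in control replicate 2, which allows up to 0.144 CPM at a limit of 3 counts, and was at 0.161, 0.357 and 0.437 CPM in control replicates 1, 3 and 4. In Hop.CA replicates 1 to 3 it was at 1.005, 6.35 and 0.858 CPM. The replicate 2 value came from 119 reads (exact Poisson 95% interval 5.26 to 7.60 CPM) and lay outside the intervals of the other Hop.CA libraries, which ended at 1.57 and 1.37 CPM. IM2 was at 0.0480 to 0.268 CPM in controls and at 1.798, 5.65 and 0.606 CPM in Hop.CA replicates 1 to 3. IM3 was at 0.0959 to 0.923 CPM in controls and at 2.38, 5.71 and 1.21 CPM in Hop.CA replicates 1 to 3, with replicate 3 only 1.31-fold above the highest control. For all 3 genes replicate 2 was the highest library and replicate 3 the lowest Hop.CA library, although for IM1 the intervals of replicates 1 and 3 overlapped. Control replicate 2, which had the highest Drs, was the lowest library for each of them, on 0, 1 and 2 reads of IM1, IM2 and IM3. IM4 was also lowest there, whereas IM14 was lowest in control replicate 3, and CG5778 and CG5791 in control replicate 1. The fitted log2 fold changes were 3.50 ± 1.002, 3.83 ± 0.825 and 2.39 ± 0.722 (SE) for IM1, IM2 and IM3.

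CG5778 and CG5791 lie on 3R, away from that cluster (22085374 to 22086397 on the minus strand and 22087075 to 22088501 on the plus strand, dm6), again divergent and 677 bases apart. CG5778 was at 0.161, 0.384, 0.297 and 0.437 CPM in control replicates 1 to 4 and at 0.793, 4.48 and 1.36 CPM in Hop.CA replicates 1 to 3. It was the only Bomanin or Daisho gene whose lowest Hop.CA library was replicate 1. Its exact Poisson 95% intervals in Hop.CA replicates 1 and 3 overlapped, on 15 and 27 reads. CG5791 was at 0.107 to 0.194 CPM in controls and at 0.634, 6.08 and 0.606 CPM in Hop.CA replicates 1 to 3. It had 12 reads in replicate 1 and 12 in replicate 3. Replicate 2 held 114 of its 138 Hop.CA reads, and its level there was 9.58-fold and 10.04-fold that of replicates 1 and 3. The log2 fold changes were 2.75 ± 0.646 and 3.91 ± 0.972 (SE).

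The Bomanin and Daisho genes shared their highest library, which was the lowest Hop.CA library for Drs. Each of the 7 had its highest level in Hop.CA replicate 2, where 13.6% of the 9457 tested genes had theirs, and where 29.0% did among tested genes whose Hop.CA libraries were all above the controls. Summed over the 7 genes, the level was 3.65, 1.97, 2.56 and 3.98 CPM in control replicates 1 to 4, and 22.7, 79.8 and 8.43 CPM in Hop.CA replicates 1 to 3. Drs stood at 182, 28.3 and 370 times that sum in Hop.CA replicates 1 to 3, and at 85.0 to 412 times in the controls. Without Hop.CA replicate 2 the log2 fold change was 1.95 for IM1, 2.67 for IM2, 1.60 for IM3, 2.57 for IM4, 3.30 for IM14, 1.73 for CG5778 and 1.95 for CG5791, and 2.92 for Drs.

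**Figure D2:**
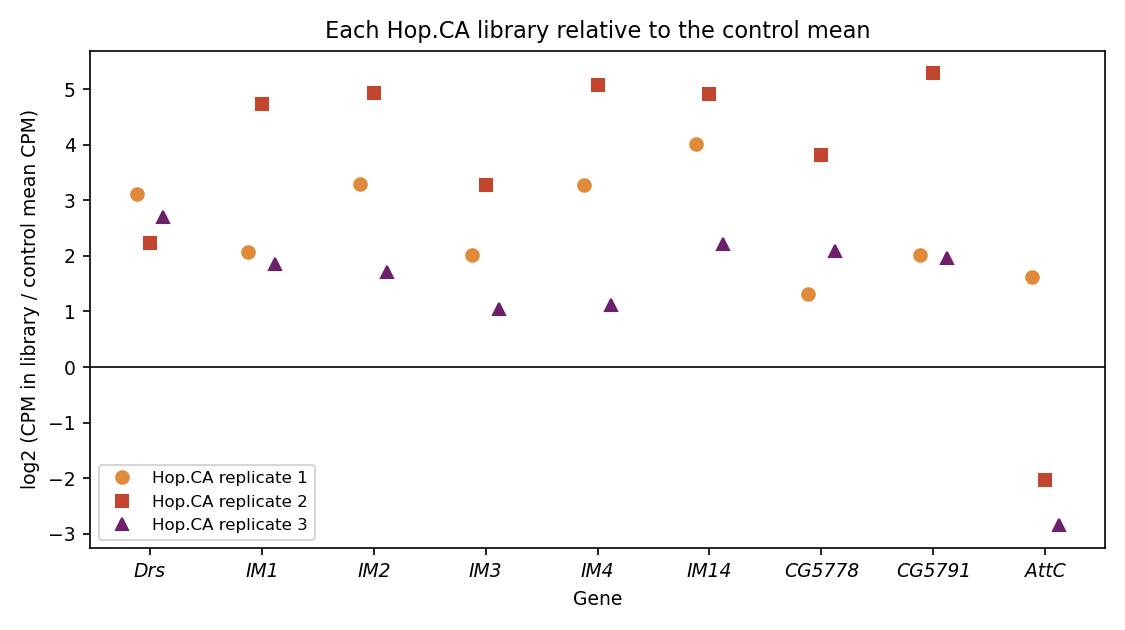
log2 ratio of the CPM in each Hop.CA library to the mean CPM of the 4 controls, for 9 peptide genes (Mtk, with 5 control reads in all, is left out). Replicate 2 (squares) is highest for the 7 Bomanin and Daisho genes, at 3.28 to 5.29, and lowest for Drs, at 2.24; AttC is above 0 only in replicate 1.

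AttC, an Imd-driven peptide gene on 2R (13393705 to 13394667, dm6, plus strand), behaved otherwise. It was at 1.82, 4.32, 0.535 and 2.04 CPM in control replicates 1 to 4 and at 6.66, 0.533 and 0.303 CPM in Hop.CA replicates 1 to 3. The groups overlapped, with the highest level in Hop.CA replicate 1 and the lowest 2 in Hop.CA replicates 2 and 3. The log2 fold change was 0.18 ± 1.08 (SE), far less than its SE. It was -2.38 without Hop.CA replicate 1 and -0.14 without control replicate 3, so the data give AttC no direction. Drs shared with AttC its highest control library, replicate 2, its lowest control library, replicate 3, and its highest Hop.CA library, replicate 1. Their lowest Hop.CA libraries differed, replicate 2 for Drs and replicate 3 for AttC. Drs was above its control mean in all 3 Hop.CA libraries, and AttC only in Hop.CA replicate 1.

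Mtk, on 2R (15408846 to 15409113, dm6, plus strand), could not be measured on its own. It had 0 to 2 total reads per control library and 1, 8 and 5 in Hop.CA replicates 1 to 3, or 0.0529, 0.427 and 0.252 CPM, and none of its 19 reads was unique. The annotation places Mtk inside CG43729 on the same strand, a gene at 1.96 to 5.68 CPM over the 7 libraries.

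Of the 10 genes, 9 passed the filter on low counts, Mtk being the exception. The filter asks for about 0.514 CPM in at least 3 libraries. IM1, IM2, IM14, CG5778 and CG5791 reached that level in no control library and IM3 in 2, so these 6 entered the fit through the group in which they were high. The fit called 8 of the 9 higher and none lower, against 16.4% of all tested genes called higher and 15.1% called lower, 31.5% in all. The libraries of 8 genes did not overlap with Hop.CA higher, as was so for 23.3% of tested genes. For the 7 Bomanin and Daisho genes, exact Poisson 95% intervals of the lowest Hop.CA library and the highest control overlapped, unlike for Drs. Because the genes were picked on this contrast, neither count is evidence about them.

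Compared per exon length by the deposited RPKM, the order of mean levels changed between the groups below Drs. In controls Drs (1234 ± 672 RPKM) was followed by AttC (2.40 ± 1.73), IM4 (1.801 ± 0.490), IM3 (0.757 ± 0.519), IM14 (0.734 ± 0.350), IM1 (0.661 ± 0.553), IM2 (0.498 ± 0.263), CG5778 (0.488 ± 0.191), Mtk and CG5791 (0.120 ± 0.0314). In Hop.CA tracheae Drs (8160 ± 2604 RPKM) was followed by IM4 (26.6 ± 28.1), IM14 (12.1 ± 8.83), IM1 (7.34 ± 8.22), IM2 (7.12 ± 6.81), IM3 (3.94 ± 2.85), CG5778 (3.20 ± 2.77), AttC (2.78 ± 4.03), CG5791 (1.79 ± 2.33) and Mtk. Neighbours in these orders overlapped in their library ranges, except Drs with the next gene in both groups and IM4 with IM3 in controls. By these group means AttC was in place 2 in controls and in place 8 in Hop.CA animals, while IM4 and IM14 were in places 2 and 3 there. The Hop.CA mean of AttC rested on replicate 1, at 7.42 RPKM, against 0.567 and 0.339 RPKM in replicates 2 and 3. Its place therefore differed between single libraries.

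The genes whose profile over the 7 libraries came closest to that of Drs were CG9121, the small heat shock protein gene Hsp23, CG5888, CR31958 and CG18258, with root mean square differences of 0.48 to 0.63 in centred log2 (CPM + 1). Hsp23 matched its library order in the controls, at 20.8, 31.2, 7.20 and 14.1 CPM, and stood at 84.1, 35.4 and 81.9 CPM in Hop.CA replicates 1 to 3. The closest peptide gene to Drs was IM14, in place 87 (1.01), and the farthest of those tested was AttC, in place 6666 (1.64). The 5 genes closest to IM4 were CG6034, CG16772, IM2, IM14 and CG7203, at 0.58 to 0.83, and IM1, IM3 and CG5791 came next in places 6 to 8. CG5778 was in place 25 and Drs in place 163. CG6034 was at 0.697 to 1.73 CPM in controls and at 11.4, 19.8 and 4.54 CPM in Hop.CA replicates 1 to 3, where its order was that of IM4. These likenesses describe 7 libraries in 2 groups, and the constant of 1 CPM shrinks the differences of genes below it.

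The other genes of the Bomanin cluster were barely read. IM23, CG15065, CG15067, CG15068, CG16836 and CG18107 had 2 to 36 reads in all 7 libraries together and were too low to test. Hop.CA replicate 2 held all 4 reads of IM23, both reads of CG15065, 15 of the 22 reads of CG15067 and 23 of the 36 reads of CG18107. That library held 0 of the 3 reads of CG15068 and 0 of the 3 reads of CG16836. CG43202 (BomT1) had no reads in any library. CG18107, which starts 188 bases after IM1, was at 0.0480 to 0.243 CPM in controls and at 0.106, 1.23 and 0.101 CPM in Hop.CA replicates 1 to 3. Of 14 listed genes for immune-induced peptides and their relatives outside the 10, 4 were tested, of which 2 fell and none rose. Over all tested genes 15.1% fell and 16.4% rose. The median log2 fold change of the 4 was -0.99, against -0.0062 over all tested genes. The 4 tested genes, IM18, IM33, CG18067 and CG30285, are not Bomanin or Daisho genes. None of the 69 reads of IM18 was unique, so its value (log2 -1.035, adjusted p = 0.248) and the median are uncertain. IM33 was at log2 0.028 (adjusted p = 0.974). CG30285 (BaraC) fell from 5.48 ± 0.394 to 2.67 ± 0.323 CPM (log2 -1.04 ± 0.166 SE, adjusted p = 0.00367). CG18067 (Bbd) fell from 45.1 ± 12.01 to 23.3 ± 2.72 CPM (log2 -0.95 ± 0.232, adjusted p = 0.0192), a call lost without Hop.CA replicate 1 (adjusted p = 0.0620) or replicate 3 (adjusted p = 0.0768). All adjusted p-values come from the edgeR fit over the 9457 tested genes unless another tool is named.

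Of 21 other antimicrobial peptide genes, 7 were tested and none passed in edgeR, at the adjusted threshold or at an unadjusted p of 0.05, while DESeq2 called 1, Dro (drosocin), higher. Dro was at 11.1, 12.1, 6.66 and 13.8 CPM in control replicates 1 to 4 and at 49.2, 11.3 and 15.4 CPM in Hop.CA replicates 1 to 3 (log2 1.20 ± 0.521, adjusted p = 0.119 in edgeR and 0.0348 in DESeq2). Without Hop.CA replicate 1 its log2 fold change was 0.28 (adjusted p = 0.515 in edgeR). Its high level was in Hop.CA replicate 1, as for AttC and for the defensin gene Def, which was at 9.89, 2.35 and 2.73 CPM in Hop.CA replicates 1 to 3. Only 3 of 581 Def reads were unique, so its values are uncertain. AttB, the close relative of AttA with which it may share reads, was at 3.39 to 18.0 CPM in controls and 4.85 to 11.6 CPM in Hop.CA. Listericin was at 8.15 to 74.8 CPM in controls and at 6.46 to 15.8 CPM in Hop.CA (log2 -1.66 ± 0.794, adjusted p = 0.152). The 6 drosomycin-like genes Drsl1 to Drsl6 had at most 3 reads each over the 7 libraries.

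Genes of the pathways that drive these peptides moved both ways. Of 27 listed Toll pathway genes 23 were tested, and 6 rose and 4 fell, against 16.4% and 15.1% of all tested genes (median log2 fold change 0.07). Without Hop.CA replicate 2 the number that fell was 2. With the replicate number as a term in the fit, 2 rose and 2 fell. Dif rose from 71.9 to 85.9 CPM over the controls to 175 to 178.5 CPM over the Hop.CA libraries (log2 1.12 ± 0.0799, adjusted p = 2.17e-04). Tl, the receptor, pll, its kinase, and cact, the inhibitor that holds the factors in the cytoplasm, also rose, by log2 0.35, 0.64 and 0.41 (adjusted p = 0.0188, 0.00304 and 0.00650). Only 173 of the 4179 reads of pll were unique, so its change is uncertain. Among the upstream sensors and proteases, PGRP-SA, a peptidoglycan receptor, fell from 60.8 to 85.0 CPM over the controls to 9.78, 17.8 and 8.78 CPM in Hop.CA replicates 1 to 3 (log2 -2.52 ± 0.271, adjusted p = 0.00107). The protein encoded by GNBP2 is related to glucan-binding sensors, and the gene fell from 2.72 ± 0.413 to 1.01 ± 0.178 CPM (adjusted p = 0.00535). Hayan, a serine protease gene, fell from 54.6 ± 13.05 to 34.7 ± 1.51 CPM (log2 -0.65 ± 0.179, adjusted p = 0.0278). Its call was lost without control replicate 2 or any 1 Hop.CA library (adjusted p 0.0534 to 0.0993), and 3142 of its 6220 reads were unique. Other upstream genes rose: grass, a protease gene, by log2 0.32 (adjusted p = 0.013) and nec by log2 0.54 (adjusted p = 0.0303). Only 79 of the 2891 reads of nec were unique. PGRP-SD, GNBP1, GNBP3, modSP, SPE, psh and spirit did not pass.

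Of 29 listed Imd pathway genes 24 were tested, and 7 rose and 2 fell, against 16.4% and 15.1% of all tested genes. Their median log2 fold change was 0.20, against -0.0062 over all tested genes. The number that rose was 1 with the replicate number as a term in the fit. It was 2 without control and Hop.CA replicates 2 together. The number that fell was 4 without control replicate 1, and 1 without Hop.CA replicate 1 or replicate 3. The receptor genes PGRP-LC and PGRP-LE rose by log2 0.36 ± 0.0742 and 0.37 ± 0.0702, from 132 ± 8.45 to 169.7 ± 4.71 CPM and from 27.8 ± 1.47 to 36.04 ± 1.16 CPM (adjusted p = 0.00967 and 0.00693). Diap2, a ubiquitin ligase gene of the pathway, rose by log2 0.63 ± 0.0873 and the kinase gene IKKbeta by log2 0.36 ± 0.0777 (adjusted p = 0.00220 and 0.0118). The factor gene Rel was at 99.02 to 125 CPM in controls and 121 to 131 CPM in Hop.CA and did not pass (log2 0.20, adjusted p = 0.142), with 161 of its 15629 reads unique. pirk, a feedback inhibitor of the pathway, was at 0.634, 5.07 and 0.858 CPM in Hop.CA replicates 1 to 3 and at 1.26 to 4.82 CPM in controls, with its highest library Hop.CA replicate 2.

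**Figure D3:**
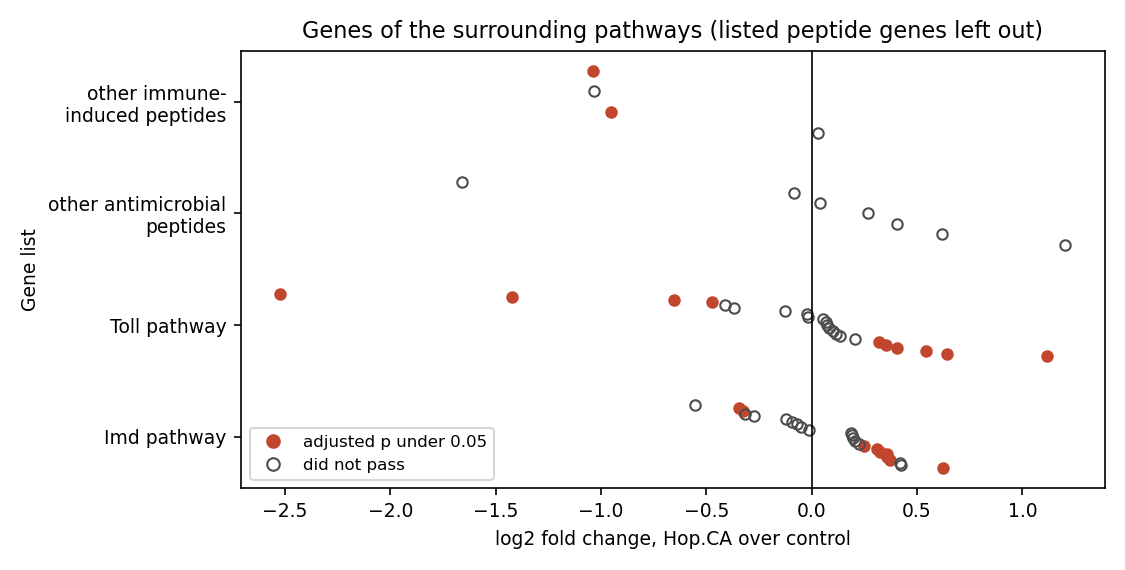
log2 fold change (Hop.CA over control) of each tested gene in 4 gene lists that leave out the 10 peptide genes, filled where the adjusted p was under 0.05. Called genes lie on both sides of 0 in the Toll and Imd lists (6 higher and 4 lower, 7 higher and 2 lower), and no other antimicrobial peptide gene is filled.

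Markers of other tissues were present and differed between libraries, and in whole-tissue RNA fewer cells of a type and less RNA per cell cannot be told apart. The summed level of 14 fat body markers, of which none was at 0, was 6894, 2248, 5345 and 2552 CPM in control replicates 1 to 4 and 2634, 4924 and 2798 CPM in Hop.CA replicates 1 to 3. Within the Hop.CA group it was highest in replicate 2. Control replicates 1 and 3 were higher still, with a Bomanin and Daisho sum under 4 CPM. Most of the fat body sum came from Lsp1alpha, Lsp1beta, Lsp1gamma and Lsp2, so it says little about the other markers. Only 8182 of the 67929 reads of Lsp2 were unique. None of the 14 rose and 2 fell (edgeR, with none higher and 4 lower at an unadjusted p of 0.05, and none higher and 3 lower in DESeq2). The 18 hemocyte markers summed to 2714 to 3070 CPM in controls and to 2655, 3463 and 2027 CPM in Hop.CA replicates 1 to 3. That order was like that of IM4, with replicate 2 highest and replicate 3 lowest. The largest parts of the sum were PPO1 and PPO2. In Hop.CA replicates 1 to 3 PPO1 was at 570.5, 780.5 and 345.8 CPM and PPO2 at 702, 994 and 417 CPM. Only 7078 of the 75337 reads of PPO1 were unique. The blood cell genes Hml, Pxn and PPO2 stood at 329, 230.5 and 994 CPM in Hop.CA replicate 2, against at most 234, 199 and 928 CPM in controls. Of the 17 tested markers, 8 had their highest library in Hop.CA replicate 2, as did 13.6% of all tested genes. For 4 of the markers it was control replicate 2. Within the Hop.CA group eater was highest in replicate 1, and PPO3 and msn in replicate 3. None of the 17 rose and 1 fell, atilla (log2 -0.82 ± 0.0920, adjusted p = 9.98e-04), of whose 19402 reads 2770 were unique. NimC4 was the only one of the 18 at 0 in every control. The part of fat body or hemocyte RNA in the Bomanin and Daisho levels was not tested. The 14 muscle markers summed to 10876 to 21459 CPM in controls and to 4312, 11021 and 5434 CPM in Hop.CA replicates 1 to 3, and 8 fell. The 14 disc markers summed to 173 to 279.7 CPM in controls and 100 to 146 CPM in Hop.CA, 8 of the 13 tested fell (10 in DESeq2), and sna was at 0. Midgut and salivary gland markers summed to at most 7.46 CPM in any library. The 12 tracheal markers were read in all 7 libraries and summed to 11280.5 to 12599 CPM in controls and 16309.5 to 17139 CPM in Hop.CA, mostly from the cuticle deacetylase genes serp and verm. Of them trh, serp and verm rose and btl, whose promoter drives the transgene, fell from 86.7 to 129.9 CPM over the controls to 63.4 to 76.3 CPM over the Hop.CA libraries (adjusted p = 0.0138).

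**Figure D4:**
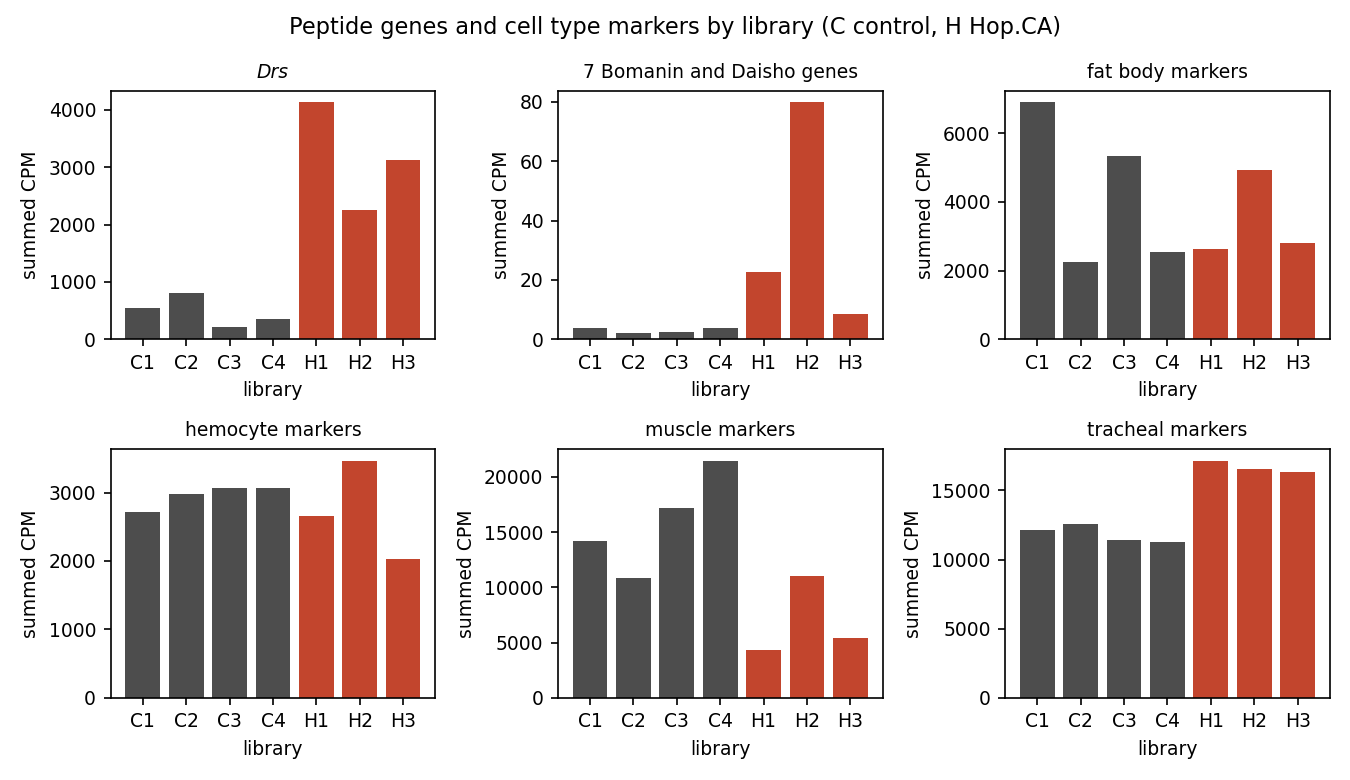
Summed CPM per library (C1 to C4 control, H1 to H3 Hop.CA) for Drs, the 7 Bomanin and Daisho genes and 4 marker lists, each panel on its own linear axis from 0. The Bomanin and Daisho sum is highest in H2 (79.8 CPM), Drs is lowest of its group there (2256 CPM), and the fat body sum is highest in C1 (6894 CPM).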

How the data were processed

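Per the labels' protocols, the 7 trachea libraries were built with a kit for stranded mRNA sequencing. For each library the authors deposited 1 table with raw read counts per gene (total, unique, exon, exon-exon and intron reads) and an RPKM value, per the file headers. The submitters' processing notes name cutadapt 1.8.1 and the build dm6. Which aligner and counter were used, and whether counting used strand, is not given in the sources used here. Each table has 17697 named genes and 1 unnamed row, left out. Of these, 17604 matched a RefSeq symbol or synonym, and all 10 peptide genes had the RefSeq coordinates.

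Total gene reads were filtered (filterByExpr, minimum count 10, minimum total 15), scaled by TMM and tested with edgeR 4.0.16 (R 4.3.3, robust quasi-likelihood), with the group as the only term. 9457 genes were tested, at a Benjamini-Hochberg adjusted p of 0.05. Each SE was obtained by dividing the size of the log2 fold change by the root of its F statistic. CPM uses the TMM-scaled library sizes. No pair of libraries within a group matched within sampling noise (chi-square per degree of freedom at least 20.6). The fit was first tested on simulated data, where it called 31.5% of 1.5-fold, 66.7% of 2-fold and 89.9% of 4-fold changes. Of its 135 calls there, 6 were false. A gene that did not pass may therefore still differ. Intervals and limits cover counting error only. Nothing states separate cultures or animals per library, so p-values measure the spread between these libraries.

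The members and lists were chosen with earlier results of these data known. Named genes are the 10 members, hop, up to 4 called genes of largest change per pathway list (or, with no call, its 3 most expressed genes), and the 5 genes most like Drs and IM4; others were chosen after their values were seen. Alternatives were RLE factors, library size only, no filter, DESeq2 1.42.0, unique reads, exon reads, the replicate number as a block and each library left out, plus control and Hop.CA replicates 2 left out together, added after seeing the data.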

Additional observations from a re-analysis of the deposited data

Results flagged for a closer look

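CG18067 (Bbd), an immune-induced peptide gene outside the 10, was at 27.2 CPM in control replicate 2, against 52.1, 51.6 and 49.6 CPM in control replicates 1, 3 and 4. The gap to the nearest other control was 0.900 of the range of the group, above the 95% critical value of the Dixon test for 4 libraries. Of 25 control groups examined this way 1 was so marked, and chance marks about 1 in 20. The Hop.CA libraries were at 20.4 to 25.9 CPM, near that control.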

How the results depend on the processing

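The count of changed genes, 2978, ranged from 1676 (without Hop.CA replicate 3) to 3407 when 1 library was left out, and was 1829 without Hop.CA replicate 1. It was 2711 to 3342 under the other normalizations, filters, read types and DESeq2. The replicate numbers did not pair the libraries: same-numbered libraries had correlations of deviations from group means of -0.223, -0.432 and -0.0694. With the replicate block the count was 938, and the count of pathway list genes, 21, was 6. That list count was 10 without control and Hop.CA replicates 2 together, and 14 to 24 with 1 library left out. The cause of these differences was not tested. AttB, which did not pass, turned from log2 -0.084 to 0.19 with the replicate block, and lay between -0.37 and 0.40 with 1 library left out. PGRP-LC, PGRP-LE, IKKbeta, Hayan and CG18067 lost their call with the block (adjusted p 0.0825, 0.0724, 0.0695, 0.0532 and 0.131). AttC, at log2 0.18, was -0.54 with the replicate block. Across the alternatives the Imd genes called lower numbered 0 to 4. Low read numbers limit the Bomanin genes, IM14 and Mtk in controls.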
